A study of Mus musculus with 8 samples.

Results

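Homozygous Gtl2 knock-in embryos (HOMO) were set against embryos that carried the same insertion on the paternal chromosome alone (PKI). Both groups hold the paternal insertion, so the comparison adds the maternal insertion to a background on which the paternal one is already present. The insertion places 3 polyadenylation cassettes, which cut a transcript short, in the promoter of Gtl2, also called Meg3. The material was whole mouse embryo at embryonic day 12.5 in the series' design text, which is also the day in the wild-type (WT) titles, whereas the titles read 0.1 day later for PKI, 0.2 for the maternal knock-in (MKI) and 0.3 for HOMO. Genotype and any such difference in age cannot be told apart. Of 8 labelled samples 4 belong to these 2 groups, and each deposited table has 1 column per genotype, so no spread between replicates can be estimated and the differences are given without a p-value. A feature was kept at 1 FPKM (fragment counts scaled for transcript length and library size) or more for mRNA genes, 0.5 FPKM for long non-coding transcripts or 10 RPM (reads scaled for library size) for microRNAs in at least 2 of the 4 columns. This kept 13279 of 29619 mRNA genes, 6181 of 29158 long non-coding transcripts and 505 of 2395 microRNAs. Differences are log2(value + 0.5) in HOMO minus the same in PKI, and a feature is called here when this reaches 1 in size, that is 2-fold.

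Imprinted genes are read from only the maternal or only the paternal chromosome. In the Dlk1-Dio3 domain of chromosome 12 the maternal chromosome makes a chain of non-coding RNAs that begins at Meg3 and carries many microRNAs, while the paternal chromosome makes the proteins Dlk1, Rtl1 and Dio3. MicroRNAs are short RNAs that lower the output of mRNAs by pairing through their seed, bases 2 to 8, and the domain's microRNAs are abundant in the fetus and placenta.

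The Meg3 start region in the reference is shown because it is the target of the insertion. The sources used here do not state where in it the cassettes lie. The stretch is chr12:109540746-109541045 of GRCm38.p6, plus strand, from RefSeq, with the 50 transcribed bases after the start in capitals:
Meg3: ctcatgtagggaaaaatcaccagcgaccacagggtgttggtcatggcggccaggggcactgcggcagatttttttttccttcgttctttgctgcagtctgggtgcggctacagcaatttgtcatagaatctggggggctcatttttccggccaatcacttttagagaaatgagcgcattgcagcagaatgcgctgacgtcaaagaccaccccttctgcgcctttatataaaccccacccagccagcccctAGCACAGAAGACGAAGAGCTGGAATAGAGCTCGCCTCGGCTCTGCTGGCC
Meg3, Rian and Mirg, the long RNAs of the maternal chromosome, were not matched by name to the long non-coding table and are not analysed here by name. Their microRNAs were matched by name, and 74 of the 77 domain microRNAs kept have a mature sequence in RefSeq, with 71 distinct seeds. The 12 that were most abundant in PKI, followed by the pair at the extremes of the HOMO-to-PKI ratio, are printed 5' to 3' with the seed in capitals:
miR-127-3p: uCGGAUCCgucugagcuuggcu
miR-541-5p: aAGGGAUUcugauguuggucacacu
miR-370-3p: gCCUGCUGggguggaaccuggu
miR-434-5p: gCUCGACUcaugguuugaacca
miR-379-5p: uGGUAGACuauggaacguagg
miR-381-3p: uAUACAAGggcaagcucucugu
miR-409-3p: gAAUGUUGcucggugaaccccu
miR-411-5p: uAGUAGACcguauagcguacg
miR-543-3p: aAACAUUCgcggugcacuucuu
miR-434-3p: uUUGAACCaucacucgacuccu
miR-300-3p: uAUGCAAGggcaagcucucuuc
miR-494-3p: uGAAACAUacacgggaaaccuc
miR-673-5p: cUCACAGCucugguccuuggag
miR-376b-5p: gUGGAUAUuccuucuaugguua

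All 77 domain microRNAs kept were at least 2-fold lower in HOMO than in PKI. Of all 505 microRNAs kept, these 77 included, 17.4% were that much lower, and of the 428 not in the domain list 2.57% were. All 77 passed the filter through the WT and PKI columns, and 34 of them reached 10 RPM in HOMO. miR-127-3p, from chr12:109592888-109592909 within the span of Rtl1, stood at 26481 RPM in WT and 26139.5 in PKI, against 455 in MKI and 794 in HOMO. miR-541-5p, from chr12:109742422-109742446 at the far end of the miR-379 to miR-410 cluster, stood at 19152, 23305, 965 and 549 RPM in the same order. Both were high in the pair of columns without the maternal insertion and low in the pair with it. HOMO therefore held 3.04% of the PKI level of miR-127-3p (exact conditional 95% interval of the ratio of reads 2.96 to 3.11%, which covers counting error only) and 2.35% of miR-541-5p (2.28 to 2.43%). For the 10 next most abundant, PKI and HOMO held 7965 and 398 RPM of miR-370-3p, 7642 and 336 of miR-434-5p, 6871 and 257 of miR-379-5p, 6443 and 368 of miR-381-3p, and 5514 and 163 of miR-409-3p. They held 3573 and 153 RPM of miR-411-5p, 3060.1 and 121 of miR-543-3p, 2224 and 85.2 of miR-434-3p, 2132 and 113 of miR-300-3p, and 2081 and 57.4 of miR-494-3p. Among these 12 the remainder lay between 2.35% (miR-541-5p) and 5.72% (miR-381-3p).

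The remainder was not the same for every microRNA. Across the 77, HOMO held a median of 3.28% of the PKI level, with quartiles of 2.35 and 4.53%, and 17 stood above 5%. The lowest was miR-673-5p at 0.332% (0.0402 to 1.20%), with 2 reads in HOMO against 758 in PKI. The highest was miR-376b-5p at 22.8% (16.4 to 31.2%), with 48 reads against 264, while the other arm of its hairpin, miR-376b-3p, held 2.80% (2.15 to 3.59%). Both arms of a hairpin are cut from 1 precursor, and 27 precursors had at least 100 PKI reads on each arm. In 13 of these the 2 arms' intervals did not overlap, and in 9 the remainders were over 2-fold apart, with a median ratio of 1.72. miR-370-3p kept 5.00% (4.83 to 5.18%) against 1.98% (1.08 to 3.34%) for miR-370-5p, and miR-329-5p kept 3.29% (2.84 to 3.79%) against 1.5002% (1.19 to 1.87%) for miR-329-3p. miR-379-5p and miR-1193-5p have the same seed and kept 3.75% (3.58 to 3.91%) and 6.10% (1.94 to 14.7%).

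**Figure D1:**
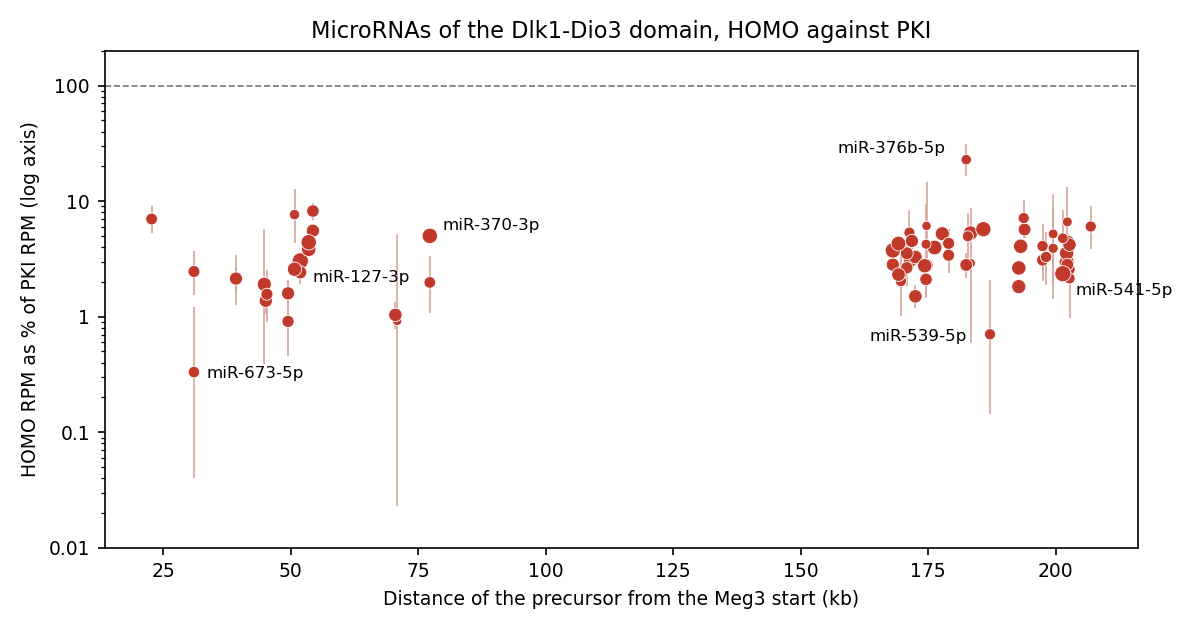
Domain microRNAs with a RefSeq position and at least 100 PKI reads, by distance of the precursor from the Meg3 start in kilobases (x axis) and HOMO level as a percentage of the PKI level (y axis, log scale). Larger points are more abundant in PKI, bars are exact conditional 95% intervals and the dashed line marks 100%. All points lie between 0.332% (miR-673-5p) and 22.8% (miR-376b-5p).

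Grouped by place, 19 microRNAs from 11 precursors between Meg3 and the end of the Rtl1 antisense stretch kept a median of 2.42% (0.332 to 8.21%). The 4 microRNAs of the next group, within the span of Rian, kept 1.51% (0.924 to 5.00%). The 50 of the last group, the miR-379 to miR-410 cluster with miR-3072-3p just past its end, kept 3.54% (0.705 to 22.8%). The ranges of these groups overlap, and when reads were summed the 3 groups kept 3.26, 4.66 and 3.34%. Across the 73 with a position, Spearman's rho of the remainder with distance was 0.34, and with PKI reads across all 77 it was -0.12. These are descriptions only, because the microRNAs share libraries and neighbours share a transcript. The pair MKI and WT, which shares no column with HOMO and PKI, gave each microRNA a second remainder. The HOMO-to-PKI interval lay above the MKI-to-WT interval for 20 microRNAs, below it for 14 and across it for 43. miR-136-5p kept 8.21% in HOMO against PKI and 1.66% in MKI against WT, and miR-494-3p kept 2.76 and 8.02%. The other 30 microRNAs of the domain list fell below the filter, with at most 91 PKI reads and 14 HOMO reads each. In 4 of them both columns had 0 reads, and 2 had more reads in HOMO: miR-1247-3p with 14 against 13 and miR-1247-5p with 12 against 5. The precursor of these 2 lies near Dio3, 737 kb from the Meg3 start, and on the minus strand, whereas Meg3 is on the plus strand.

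The 3 protein-coding genes that the paternal chromosome expresses were higher in HOMO than in PKI. Dlk1, a membrane protein that resembles the Notch ligands (chr12:109452485-109463336), stood at 80.5 FPKM in WT and 55.7 in PKI, against 83.4 in MKI and 181 in HOMO. Rtl1, a retrotransposon-derived gene needed in placental vessels (chr12:109564900-109604418), stood at 1.02, 0.610, 2.28 and 2.51 FPKM in the same order. Dio3, the deiodinase that inactivates thyroid hormone (chr12:110279230-110281097), stood at 0.568, 0.416, 0.217 and 1.42 FPKM and missed the filter. For all 3 genes HOMO was the highest of the 4 columns, and PKI was the lowest for Dlk1 and Rtl1. The HOMO-to-PKI fold was 3.25 for Dlk1 (log2 difference 1.69), 4.12 for Rtl1 (1.44) and 3.41 for Dio3 (1.07), where 1.55% of all mRNA genes kept were 2-fold higher. The differences of MKI from WT for the same genes were 0.05, 0.87 and -0.58. Reads of Rtl1 and of the maternal RNA antisense to it are told apart only where counting used strand, which the sources used here do not state, although the libraries marked strand. Of 27 genes listed on either side of the domain 23 were kept, none was 2-fold apart, and their median was 0.10. The largest was Dync1h1, a dynein heavy chain, at 31.4 FPKM in PKI and 52.7 in HOMO (0.74), and Hsp90aa1, a chaperone, was at 263 and 196 (-0.42).

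**Figure D2:**
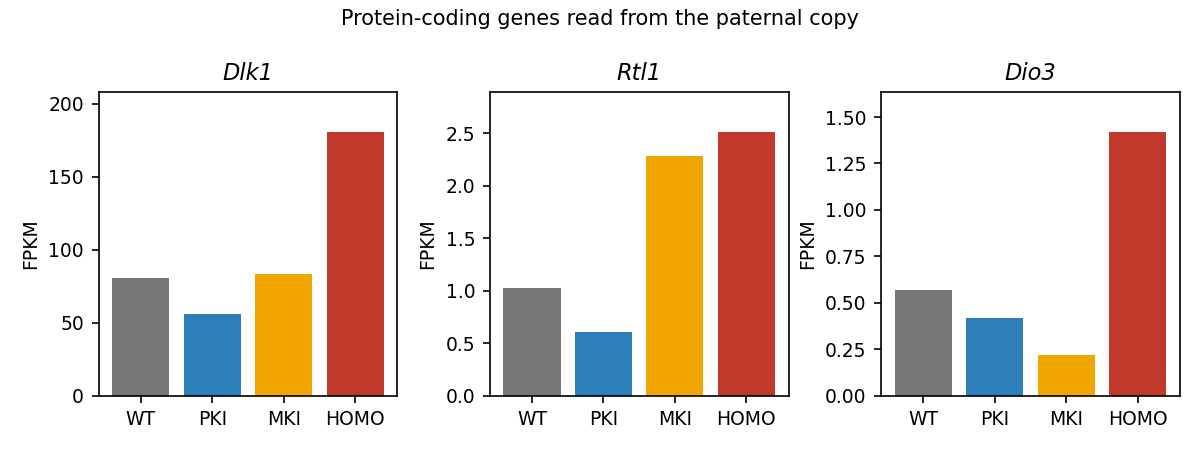
FPKM (y axis, from 0, a scale for each gene) of Dlk1, Rtl1 and Dio3 in the single WT, PKI, MKI and HOMO columns. HOMO is the highest column for each gene, at 181 FPKM for Dlk1, 2.51 for Rtl1 and 1.42 for Dio3.

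Among long non-coding transcripts, 175 were at least 2-fold higher in HOMO (2.83%) and 265 lower (4.29%), with a median difference of -0.09. The excess of lower ones depended on scaling. Quantile normalization gave 255 higher and 267 lower, and TMM factors gave 236 and 269, each with a median of -0.01. Of the 878 kept with an Ensembl identifier 33 were higher and 67 lower, and of the 5303 assembled by the authors 142 and 198. Ensembl transcript ENSMUST00000182981 stood at 25.8 FPKM in WT and 35.98 in PKI, against 0.152 in MKI and 0.0869 in HOMO. ENSMUST00000182238 stood at 8.996, 15.6, 0.00231 and 0.0241 FPKM. Both were present without the maternal insertion and near 0 with it, in each pair of columns. The opposite was seen for MSTRG.10992.2 and MSTRG.10992.1, 2 transcripts of an assembled locus, which were listed at 0 in WT and PKI and stood at 13.4 and 15.3 FPKM in MKI and 5.24 and 3.96 in HOMO. In all, 109 kept transcripts were listed at 0 in PKI and 179 in HOMO. The summed FPKM of the table was 45971 in WT and 66401 in PKI, against 15573 in MKI and 38677 in HOMO. The transcript with the highest value held 14818, 29660.3, 2.92 and 13466 FPKM of these.

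Across mRNA genes 206 were 2-fold higher in HOMO and 175 lower (1.32%), and 2.87% were called in either direction. The median difference was 0.01, with quartiles of -0.22 and 0.24. Of 12623 kept genes with a symbol 174 were higher and 105 lower, and of 656 assembled or unnamed genes 32 and 70. Among the 15 largest in each direction the higher ones were led by histone and predicted genes, whose reads may be split between near-identical copies, followed by genes of blood and liver that are given with their groups below. Hist1h3d, a replication histone, stood at 0.520 FPKM in PKI and 116 in HOMO, and Hist1h2bj at 17.3 and 109.8. RNA was selected with oligo(dT), and the part of this selection in the values of histone genes, here and below, was not tested. Gm49450 was listed at 0 in PKI and MKI and stood at 53.7 in WT and 57.7 in HOMO. Gm49380, Gm42878, Gm43720 and the zinc-finger gene Zfp708 were also among the 15. Pou3f3, a transcription factor of brain and kidney, was at 0.420 FPKM in PKI and 3.51 in HOMO (2.12).

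Ccnb1ip1, a meiotic crossover protein (chr14:50789249-50795728), had the largest difference of all mRNA genes, -10.40. It stood at 1012 FPKM in WT and 2339 in PKI, against 2.21 in MKI and 1.24 in HOMO, so it was high in both columns without the maternal insertion and low in both with it. Rpl29, a ribosomal protein gene with many copies, stood at 84.8, 98.4, 44.3 and 3.91 FPKM. The predicted gene Gm10260 stood at 89.2, 134, 97.7 and 0.681, and was low in HOMO alone. Gm11361, Gm47283, Gm7879, Gm28557, Gm27029 and Rps27rt, which are predicted or copied genes with uncertain read assignment, were also among the 15. The others were Zfp991, Zfand1, the splicing subunit gene Lsm5 (11.5 FPKM in PKI and 1.95 in HOMO), the ATP synthase subunit gene Atp5g1 (53.1 and 12.5), the securin gene Pttg1 (40.2 and 9.64) and Cd59b, a complement inhibitor (3.13 and 0.412).

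Hepatocyte genes were higher in HOMO than in PKI. Of 42 listed 35 were kept, 34 stood above PKI and 1 below, where 51.1% of all mRNA genes kept were above. Of the 35, 21 were 2-fold higher and none lower, and the median difference was 1.20. Transferrin (Trf), the iron carrier of plasma, stood at 85.1 FPKM in WT and 24.1 in PKI, against 109 in MKI and 129 in HOMO. Alpha-fetoprotein (Afp), the main plasma protein of the fetus, stood at 292, 96.2, 457 and 365 FPKM. The protease inhibitor components Itih3 and Ambp stood at 0.594 and 4.13 FPKM in PKI and at 4.66 and 18.0 in HOMO, and prothrombin (F2) at 1.13 and 5.58. PKI was the lowest of the 4 columns for each of these 5 genes. Albumin (Alb) was at 81.1 FPKM in PKI and 259 in HOMO, the fibrinogen chain Fga at 2.29 and 7.83, and Hnf4a, a hepatocyte transcription factor, at 1.14 and 2.44 (0.84). The gene below was Ttpa, a vitamin E transfer protein, at 1.51 and 1.03 FPKM. Summed over the list's genes the level was 930 FPKM in WT and 350 in PKI, against 1423 in MKI and 1103 in HOMO. The list's median was -1.24 in PKI against WT, a comparison that shares the PKI column, and 0.03 in HOMO against WT. In whole embryos fewer cells of a type and less RNA per cell cannot be told apart.

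The liver microRNAs stood the same way: 6 of 6 kept were above PKI, with a median of 0.73, where 67.5% of the 428 microRNAs not in the domain list were above. miR-122-5p, made mainly by hepatocytes, was at 2695 RPM in PKI and 4869 in HOMO, miR-192-5p at 1224 and 2462, and miR-148a-3p at 38833 and 69344.

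Definitive red cell genes were likewise higher in HOMO. Of 38 listed 36 were kept, 35 stood above PKI and 1 below, 12 were 2-fold higher and none lower, and the median was 0.90. Pklr, the red cell pyruvate kinase, stood at 16.8 FPKM in WT and 3.43 in PKI, against 7.80 in MKI and 16.0 in HOMO. Gata1, the transcription factor that drives red cell formation, stood at 5.49, 1.70, 2.52 and 6.62 FPKM. PKI was the lowest column for both, and HOMO was near WT. The membrane skeleton gene Sptb was at 3.97 FPKM in PKI and 13.4 in HOMO, Alas2, which starts heme synthesis in red cells, at 16.0 and 45.9, and the blood group gene Kel at 2.94 and 8.23. The erythropoietin receptor Epor was at 2.74 and 5.52, the anion exchanger Slc4a1 at 23.2 and 52.7, and the transferrin receptor Tfrc at 30.6 and 35.3. Uros, a heme synthesis enzyme, was the gene below, at 11.9 and 11.3 FPKM. The list summed to 738 FPKM in WT and 435 in PKI, against 616 in MKI and 811 in HOMO, and its median was -0.93 in PKI and -0.01 in HOMO, each against WT.

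The globins, which carry oxygen, stood apart from each other. Of 12 listed 8 were kept, 7 above PKI and 1 below, with 3 at 2-fold or more and a median of 0.77. Unlike the red cell list, their median was -0.17 in PKI and 0.69 in HOMO, each against WT. In HOMO 7 of the 8 were above WT. The list summed to 9121 FPKM in WT and 8254 in PKI, against 5464 in MKI and 15717 in HOMO. The adult alpha globins Hba-a2 and Hba-a1 were at 806 and 1138 FPKM in PKI and 2988 and 2922 in HOMO, and the embryonic zeta globin Hba-x at 368 and 1059. The adult beta globin Hbb-bs was at 1123 and 1972 FPKM, the embryonic Hbb-y was above PKI by 0.57, and the embryonic Hbb-bh1 was at 548 and 374 (-0.55). Reads of near-identical globin copies may be split, so these values are uncertain one by one. Of 12 erythroid microRNAs kept 9 were above PKI, with a median of 0.26. This is near the 67.5% above, and the median of 0.17, of all 428 microRNAs not in the domain list. miR-144-3p was at 34.1 RPM in PKI and 84.9 in HOMO, while the other arm, miR-144-5p, was at 143 and 153. The Pklr promoter is shown because it holds the GATA motif AGATAAG, 35 bases before the start and in capitals (RefSeq, GRCm38.p6, chr3:89135892-89136191, plus strand):
Pklr: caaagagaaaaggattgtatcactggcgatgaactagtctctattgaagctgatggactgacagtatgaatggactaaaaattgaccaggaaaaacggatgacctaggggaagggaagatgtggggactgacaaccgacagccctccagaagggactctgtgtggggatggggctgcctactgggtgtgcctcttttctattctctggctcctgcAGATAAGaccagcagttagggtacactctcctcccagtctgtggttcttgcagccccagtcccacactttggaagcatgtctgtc
Searched on both strands, AGATAAG was found in 3.04% of the 32851 promoters, which is at least 1 promoter of 3.50% of 27025 genes, and in 7 of the 26 kept red cell genes with a promoter in the table, namely Cpox, Epb42, Epor, Icam4, Pklr, Rhd and Trim10. A match is a description of letters and shows no binding.

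Blood progenitor and megakaryocyte genes had a median of 0.92. Of 23 listed 14 were kept, 12 above PKI and 2 below, and 7 were 2-fold higher. The platelet chemokines Ppbp and Pf4 stood at 2.94 and 4.78 FPKM in PKI and 17.6 and 14.1 in HOMO. Itga2b, the platelet fibrinogen receptor subunit, stood at 0.726 and 4.97, Gfi1b, a transcription factor of the same lineage, at 0.674 and 3.68, and the platelet receptor Treml1 at 0.429 and 1.91. PKI was under WT for all 5, which stood at 10.1 FPKM (Ppbp), 11.4 (Pf4), 2.83 (Itga2b), 3.404 (Gfi1b) and 1.42 (Treml1). The progenitor genes Kit (5.13 and 8.08) and Runx1 (3.33 and 4.45) were above PKI by less than 2-fold, and Meis1 (19.8 and 16.7) and Hlf (1.52 and 1.04) were below. Macrophage and myeloid genes had a median of 0.16, with 12 of 15 kept above and 1 at 2-fold. That gene was Mpo, myeloperoxidase of granulocyte precursors, at 1.502 FPKM in WT and 0.254 in PKI, against 0.561 in MKI and 3.14 in HOMO. The macrophage receptor Csf1r was at 3.81 in PKI and 4.61 in HOMO, and Tyrobp, a signalling adaptor, at 6.58 and 3.10. Of 12 microRNAs of vessels and blood 10 were above PKI, where 67.5% of the 428 microRNAs not in the domain list were above. The lymphocyte microRNA miR-150-5p was at 8.24 and 32.6 RPM and the blood microRNA miR-142a-3p at 182 and 353.

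**Figure D3:**
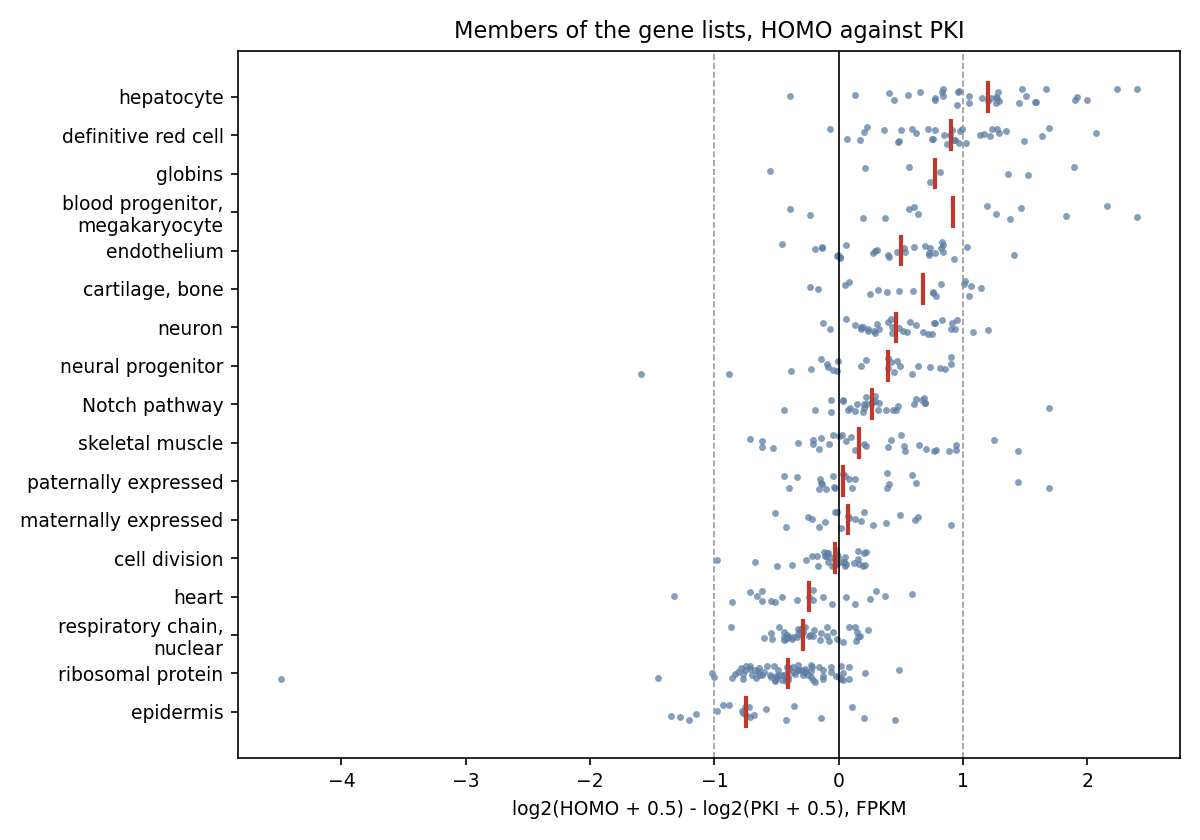
Log2 difference of HOMO from PKI (x axis, pseudocount 0.5 FPKM) for each kept member of the gene lists on the y axis (points, spread vertically for visibility) with the list median as a red bar; dashed lines mark 2-fold. Hepatocyte genes lie farthest right with a median of 1.20 and epidermal genes farthest left at -0.74.

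Endothelial genes, active in the cells that line vessels, had a median of 0.50, with 24 of 30 kept above PKI and 2 at 2-fold, and stood at -0.38 in PKI and 0.17 in HOMO, each against WT. Vwf, the von Willebrand factor, was at 1.56 FPKM in PKI and 4.99 in HOMO, and the junction gene Cdh5 at 6.39 and 13.6. The growth factor receptor Kdr was at 6.24 and 12.3 (0.92), Pecam1 at 8.18 and 14.3 (0.77) and the transcription factor Erg at 4.48 and 3.12 (-0.46). Mural cell genes were split 6 above and 6 below, with a median of 0.11. Cartilage and bone genes had a median of 0.68, with 16 of 18 kept above and 5 at 2-fold, and stood at -0.68 in PKI and -0.17 in HOMO, each against WT. Col2a1, the main collagen of cartilage, stood at 68.0 FPKM in WT and 27.8 in PKI, against 18.8 in MKI and 58.1 in HOMO. The cartilage genes Col11a2, Acan and Matn1 were at 0.754, 0.783 and 0.327 FPKM in PKI and 2.27, 2.09 and 1.17 in HOMO, and Alpl, alkaline phosphatase of bone, at 1.08 and 2.80. The bone gene Runx2 (3.50 and 3.73) and the matrix gene Hapln1 (4.73 and 3.96) differed by less. Broader mesenchyme and matrix genes had a median of 0.15, with 19 of 28 kept above PKI and 9 below. Fibronectin (Fn1) was at 40.9 and 86.7 and elastin (Eln) at 2.85 and 6.28. Twist1 (49.9 and 28.2) and Lum (59.3 and 34.2) went the other way.

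Neuronal genes stood above PKI in 32 of 34 kept, with a median of 0.46 and 2 at 2-fold. Against WT the list's median was -0.72 in PKI and -0.24 in HOMO, where 5 of the 34 were above WT. The 2 at 2-fold were the adhesion molecule L1cam, at 3.62 FPKM in PKI and 8.95 in HOMO, and the synaptic vesicle gene Syn1, at 1.91 and 4.59. Mapt, a microtubule protein, was at 8.09 and 16.1 (0.95), and Tubb3, a neuronal tubulin, at 121 and 170 (0.48). Neural progenitor genes had a median of 0.40, with 15 of 25 kept above, and stood at -0.46 in PKI and -0.13 in HOMO, each against WT. Sox2, a transcription factor of neural stem cells, went the other way, at 9.51 FPKM in WT and 3.21 in PKI, against 11.1 in MKI and 0.734 in HOMO. Neurog1, which starts neurogenesis, was at 1.5004 and 3.24 (0.90). Among the genes of the Notch pathway, to whose ligands Dlk1 is related, 28 of 32 were above PKI with a median of 0.27, and Dlk1 alone passed 2-fold. The receptors Notch1, Notch3 and Notch4 were at 14.6, 16.9 and 1.52 FPKM in PKI and 24.0, 26.4 and 2.75 in HOMO. The ligands Dll1 (7.97 and 13.1) and Jag1 (9.52 and 10.2) and the targets Hes5 (15.2 and 17.7) and Hes1 (15.3 and 13.3) differed by less than 2-fold. Thyroid hormone genes, relevant to Dio3, had a median of 0.28 with 10 of 12 kept above. The hormone carrier Ttr, also a liver product, passed 2-fold at 13.4 and 33.4 FPKM, and the receptor Thra was at 28.4 and 34.9.

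**Figure D4:**
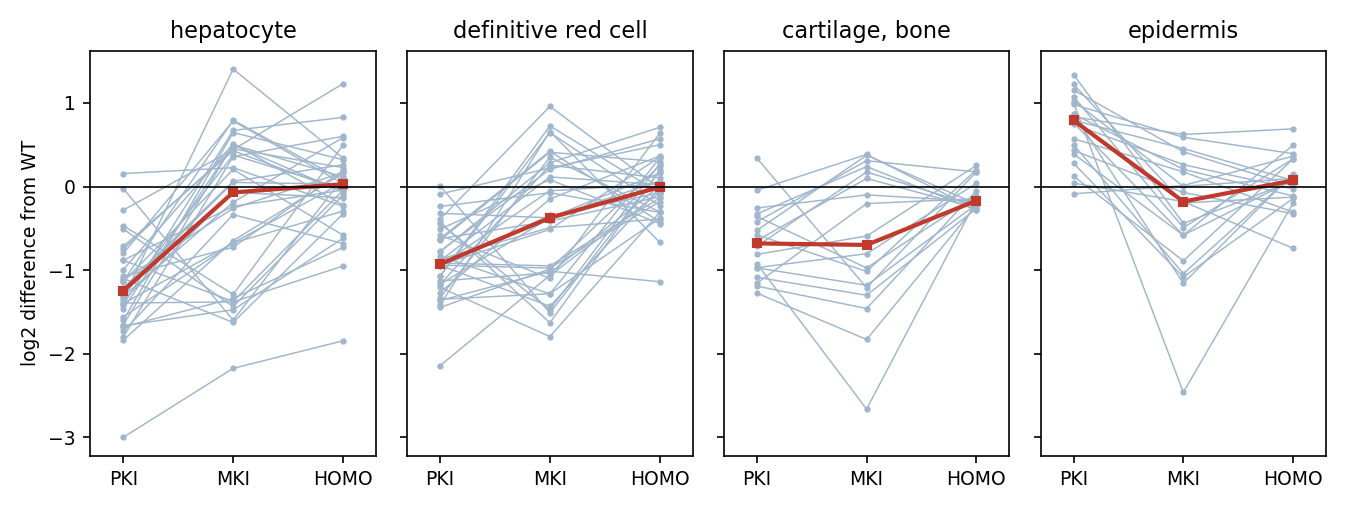
Log2 difference from WT (y axis) in the PKI, MKI and HOMO columns for each kept gene (thin lines join the same gene) and the list median (red squares) of 4 lists. The hepatocyte and red cell medians are -1.24 and -0.93 in PKI and 0.03 and -0.01 in HOMO, and the epidermal median is 0.79 in PKI.

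Epidermal genes were lower in HOMO than in PKI. Of 28 listed 21 were kept, 3 above and 18 below, where 48.9% of all mRNA genes kept were below, and 4 were 2-fold lower with a median of -0.74. Krt5, a keratin of basal skin cells, stood at 13.6 FPKM in WT and 32.4 in PKI, against 11.8 in MKI and 12.4 in HOMO. Trp63, the transcription factor of basal epidermis, stood at 2.55, 6.29, 3.57 and 2.56 FPKM. PKI was the highest column for both, and the list's median was 0.79 in PKI against WT. Krt14 was at 15.0 FPKM in PKI and 6.24 in HOMO, and the simple-epithelium keratin Krt18, above PKI, at 9.25 and 12.82. Heart genes had a median of -0.24, with 6 above and 15 below, and the atrial light chain Myl7 passed 2-fold at 24.9 and 9.67 FPKM. Skeletal muscle genes were divided, 20 above and 12 below, with a median of 0.16 and a lowest difference of -0.71. Among those above, titin (Ttn) was at 2.95 and 7.70 and embryonic myosin Myh3 at 9.81 and 19.3.

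Genes of protein synthesis and respiration were lower by smaller amounts. Of 78 cytosolic ribosomal protein genes 69 stood below PKI and 9 above, with a median of -0.41 and 4 at 2-fold, namely Rpl29, Rpl39 (322 and 117 FPKM), Rpsa (536 and 265) and Rps14 (1185 and 591). Summed, they stood at 22336 FPKM in WT and 31088 in PKI, against 18468 in MKI and 23548 in HOMO. Of 41 nuclear respiratory chain genes 33 were below, none by 2-fold, with a median of -0.29, and the cytochrome oxidase gene Cox7a2 differed most at 162 and 88.6 FPKM. The 13 mitochondrial mRNAs did not share a direction. mt-Nd3 (336 and 144) and mt-Co3 (2850.4 and 1254) were 2-fold lower and mt-Nd1 (95.8 and 211) 2-fold higher, with a list median of -0.12 that became 0.09 under quantile normalization.

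Ribosomal protein and respiratory chain genes are short, with median spans of 3.18 and 7.51 kb, so the difference was also set against gene length. Across 12330 genes with a RefSeq span, Spearman's rho between span and the HOMO minus PKI difference was 0.15, beside -0.28 for PKI and -0.15 for HOMO against WT. The median difference was -0.06 in the shortest of 5 groups of equal size, up to 8.52 kb, and 0.08 in the longest, from 77.0 kb. With each gene set against the median of its own length group, the list medians were 1.23 for hepatocyte, 0.91 for red cell, 0.71 for cartilage, 0.48 for neuronal, -0.71 for epidermal, -0.35 for ribosomal protein and -0.23 for respiratory chain genes.

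The remaining lists were mostly closer to the median of all genes. Paternally expressed imprinted genes were split 12 above and 11 below with a median of 0.03, and Dlk1 and Rtl1 were the only ones at 2-fold. Igf2, the fetal growth factor, was at 380 FPKM in PKI and 394 in HOMO, and Peg10, a placental retrogene, at 63.8 and 96.3. Maternally expressed genes had a median of 0.08 with none at 2-fold, and Igf2r, the receptor that clears Igf2, was at 23.5 and 44.2 (0.90). Medians were 0.06 for the insulin-like growth factor axis, where Igfbp1, a binding protein made in liver, passed 2-fold at 0.638 and 2.48 FPKM. They were -0.03 for cell division, -0.02 for p53 targets, -0.02 for Hox genes, 0.01 for secreted signals, 0.13 for cholesterol synthesis, -0.07 for immediate early and heat shock genes, and -0.08 for 7 interferon genes. Glycolysis and hypoxia genes had a median of 0.21, with 24 of 32 above and the lactate carrier Slc16a3 at 4.95 and 11.04 FPKM. Kidney and gonad genes had 0.56 over 10, with Ret, a growth factor receptor of the ureteric bud, at 1.29 and 3.12. Only 4 yolk sac and placenta genes were kept, all above PKI, with a median of 0.57. The 7 genes of other endoderm organs had 0.15.

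Of the 428 microRNAs outside the domain list 24 were 2-fold higher in HOMO (5.61%) and 11 lower (2.57%), with a median of 0.17. The domain list held 12.5% of the reads in PKI and 0.426% in HOMO. The higher share of the called ones, 68.6%, depended on scaling. It was 94.8% under quantile normalization and 42.3% under TMM factors. When RPM was taken over microRNAs outside the domain it was 44.0%, with 11 higher and 14 lower and a median of -0.02. The higher ones named below were called on RPM as deposited. Of these, miR-504-5p (1.18), miR-1298-5p (1.11), miR-3081-3p (1.10), miR-704 (1.08) and miR-128-3p (1.07) lay close to the threshold of 1. The sequences of some of the higher and lower ones are shown 5' to 3' with the seed in capitals, chosen after their values were seen, and those of the miR-30 and miR-181 families are grouped because their members share a seed:
miR-29a-3p: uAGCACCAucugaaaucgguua
miR-33-5p: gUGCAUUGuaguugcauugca
miR-132-5p: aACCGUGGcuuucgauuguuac
miR-7688-5p: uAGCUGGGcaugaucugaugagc
miR-3963: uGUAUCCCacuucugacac
miR-219a-1-3p: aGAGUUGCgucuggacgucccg
miR-30a-3p: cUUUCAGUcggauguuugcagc
miR-30e-3p: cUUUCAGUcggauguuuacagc
miR-181d-5p: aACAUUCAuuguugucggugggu
miR-181a-5p: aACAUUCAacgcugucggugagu
miR-181b-5p: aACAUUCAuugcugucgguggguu
miR-181c-5p: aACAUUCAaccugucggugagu

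miR-29a-3p, a regulator of collagen mRNAs, stood at 38.4 RPM in WT and 37.7 in PKI, against 54.2 in MKI and 463 in HOMO, so HOMO alone was high. HOMO held 1226% of the PKI level (1103 to 1366%). The members that share its seed, miR-29b-3p and miR-29c-3p, were below the filter, with 11 and 12 reads in PKI and 86 and 45 in HOMO. miR-33-5p, a regulator of cholesterol export, was at 5.06 RPM in PKI and 36.2 in HOMO. Its other arm, miR-33-3p, was below the filter and went the other way, with 47 reads in PKI and 19 in HOMO. The neuronal microRNA miR-132-5p was at 8.94 and 46.5 RPM, with its other arm miR-132-3p at 26.0 and 54.5. miR-7688-5p had 0 reads in PKI and 75 in HOMO, and stood at 10.5 RPM in WT and 10.8 in MKI. Among the other higher ones were miR-504-5p (126 and 286 RPM), miR-1298-5p (313 and 678), miR-3081-3p (512 and 1101), miR-292a-5p (34.0 and 83.0), miR-704 (24.6 and 52.6), the neuronal miR-128-3p (938 and 1968) and novel_miR_205, so named in the table, (19.5 and 61.6).

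The lower ones included miR-30a-3p and miR-30e-3p, passenger strands with the same seed. miR-30a-3p stood at 1076 RPM in WT and 1111 in PKI, against 439 in MKI and 519 in HOMO, and miR-30e-3p at 1161, 1002, 454 and 476. Their other arms went the other way, miR-30a-5p from 11659 in PKI to 14391 in HOMO and miR-30e-5p from 5284 to 7252. A further passenger strand of the family, miR-30d-3p, was at 31.4 RPM in PKI and 32.9 in HOMO. miR-181d-5p stood at 5685, 6680, 3942 and 3120 RPM, so it was lower in both columns with the maternal insertion. Its MKI level was 69.3% of WT, which is short of 2-fold. Of the members with its seed, miR-181b-5p held 59.5% of the PKI level (58.6 to 60.5%), miR-181a-5p 76.3% (74.8 to 77.9%) and miR-181c-5p 110.3% (99.1 to 123%), whose interval includes 100%. The other arm of the miR-181d hairpin, miR-181d-3p, was below the filter and went the other way, with 34 reads in PKI and 54 in HOMO. The pancreatic and neuroendocrine miR-375-3p was at 107 RPM in PKI and 41.7 in HOMO, miR-598-3p at 385 and 125, miR-219a-1-3p at 164 and 66.9, and miR-3963 at 80.6 and 24.8. novel_miR_531 stood at 239 RPM in WT and 206 in PKI, against 9.49 in MKI and 9.98 in HOMO. novel_miR_780 stood at 20.7, 28.6, 1.505 and 1.12 RPM. Both were low in the columns with the maternal insertion, as the domain microRNAs were, and their place in the genome is not known here, so they are counted outside the domain list by name alone. List medians were 0.26 for 20 neural, 0.22 for 12 cartilage and smooth muscle, 0.16 for 11 epithelial, 0.14 for 7 muscle, 0.14 for 15 let-7 and -0.03 for 22 miR-17-92 family microRNAs.

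**Figure D5:**
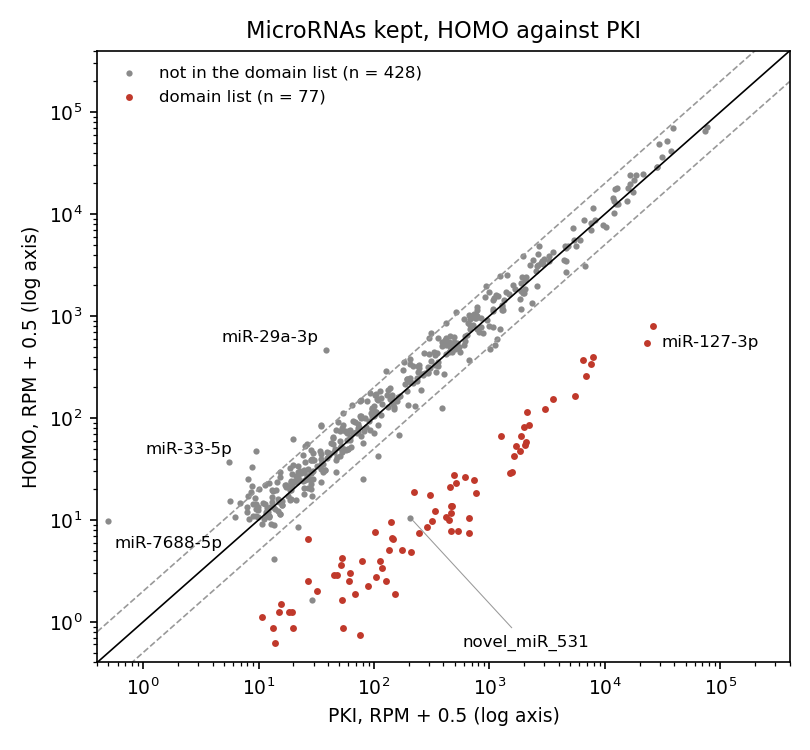
HOMO against PKI level of the 505 kept microRNAs, both as RPM + 0.5 on log axes, with the line of equality and dashed lines at 2-fold. The 77 domain microRNAs (red) all lie under the lower dashed line, and miR-29a-3p lies at 37.7 RPM in PKI and 463 in HOMO.

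MKI against WT adds the maternal insertion without the paternal one and uses the other pair of columns. In that pair 2532 mRNA genes were 2-fold lower (19.1%) and 162 higher (1.22%), so MKI differed from WT in far more genes than HOMO from PKI. The MKI minus WT difference also moved with gene span, with a rho of 0.34 and a median of -0.68 in the shortest group and 0.14 in the longest. The part of gene length in the MKI values was not tested. Of the 175 genes lower in HOMO than PKI 61 were also lower in MKI than WT, 34.9% of one list and 2.41% of the other. They include Ccnb1ip1, Zfp991, Zfand1 and Atp5g1, several histone genes such as Hist1h2ae (234 FPKM in PKI and 79.4 in HOMO), Krt14 and Myl7. For genes higher in both pairs the overlap was 13, 6.31% of the 206 and 8.02% of the 162, while 58 genes were higher in HOMO than PKI and lower in MKI than WT. For long non-coding transcripts 97 were lower in both, 36.6% of the 265 and 25.1% of the 387 (6.26% of those kept). Another 39 were higher in both, 22.3% of the 175, where 6.5% were higher in MKI. Opposite directions were seen for 36 transcripts higher in HOMO than PKI and lower in MKI than WT, 20.6% of the 175. The reverse held for 50, 18.9% of the 265. For microRNAs outside the domain list 8 were lower in both, 72.7% of 11 and 80.0% of 10 (2.34% of those kept), and none of the 24 and 13 (3.04%) higher ones was shared. The medians of HOMO against PKI and of MKI against WT stood at 1.20 and -0.07 for hepatocyte genes, 0.90 and -0.37 for red cell genes, 0.68 and -0.70 for cartilage genes, and -0.41 and -0.42 for ribosomal protein genes.

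The small-RNA columns held 10072670 reads in PKI and 8016848 in HOMO, so 1 read was worth 0.0993 and 0.125 RPM. The depth of the FPKM columns is unknown. Y-linked genes such as Uty (15.3 FPKM in PKI and 12.3 in HOMO) and Ddx3y (10.98 and 8.06) were present in both groups at like levels and listed at 0 in WT. The part of embryo sex in the values set against WT was not tested.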

How the data were processed

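RNA from whole embryos of 4 genotypes was profiled in 3 tables, each with 1 column per genotype, although the labels describe 8 samples, 2 per group. Per the labels' protocols, RNA was selected with oligo(dT) and libraries marked strand with dUTP. Reads were handled with StringTie 1.3.4d, HISAT2 2.0.4 and cutadapt 1.9 against GRCm38, per the submitters' processing notes. The sources used here do not state the small-RNA library preparation, the annotation release, the use of strand in counting or whether a column combines libraries.

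Both longer-RNA tables, mRNA and long non-coding, were read as deposited FPKM, since StringTie is the quantifier named and the headers give no unit. The deposited microRNA values are RPM made by the authors, and 100% of values were whole reads to within 0.02 of a read. The count of reads was recovered from the deposited RPM in each column (PKI 10072670, HOMO 8016848, WT 8405962, MKI 8638401). Ratios of reads have exact conditional 95% intervals, which cover counting error only. Values of 40 mRNA entries that share 20 symbols were summed.

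HOMO was compared with PKI on log2(value + 0.5), which understates folds of low genes, after the filter on low values, with a call at 2-fold and no test. Members and gene lists were chosen with earlier results of these data known. Named were the 15 largest differences each way with a symbol (2 FPKM or more in the higher column), up to 5 members per list, the paternal domain genes, 2 long non-coding identifiers each way, the 12 domain microRNAs highest in PKI, the extremes of their ratio, and the 8 largest differences each way among other microRNAs (50 RPM or more). Other genes are examples chosen after their values were seen.

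Alternatives were pseudocounts of 0.1 and 1, TMM factors, quantile normalization, a stricter filter (5 FPKM, 2 FPKM and 100 RPM) or none, RPM outside the domain, and additive maternal and paternal terms over the 4 columns with 1 residual degree of freedom, in limma 3.58.1 for mRNA and in edgeR 4.0.16 (quasi-likelihood) for recovered reads, in R 4.3.3. Steps were tested on simulated data.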

Additional observations from a re-analysis of the deposited data

Results flagged for a closer look

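In 17 named genes the difference went at least 2-fold one way in HOMO against PKI and at least 2-fold the other way in MKI against WT. Over all 13279 mRNA genes kept, 58 were higher in HOMO than PKI and lower in MKI than WT, and 11 the reverse. Most named genes were chosen for a large HOMO to PKI difference, and 19.1% of all genes were 2-fold lower in MKI than WT. The count of 17 is thus no result about these genes as a group. The difference between the differences was not tested, because each column is a single value. On the log2 scale it was 13.6 for Gm49450, 6.11 for Gm49380, 5.21 for Gm42878 and 4.52 for the histone gene Hist1h2bj, all of which may share reads with close copies. For blood genes it was 3.21 for Itga2b, 3.13 for Pklr, 3.26 for Gfi1b, 3.03 for Pf4, 2.45 for Treml1, 3.22 for Hba-a2 and 2.62 for Hba-a1, each higher in HOMO than PKI and lower in MKI than WT. For matrix genes it was 2.60 for Col11a2, 2.88 for Col2a1 and 2.81 for Eln, and for the lactate carrier Slc16a3 it was 2.68, in the same direction. Cd59b (-3.06) and the mitochondrial mt-Co3 (-2.52) were lower in HOMO than PKI and higher in MKI than WT.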

How the results depend on the processing

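No paired analysis was possible because the table columns carry no replicate number, and with 1 column per group no replicate could be left out. With a pseudocount of 0.1 the counts higher and lower were 327 mRNA genes higher, and 414 and 608 long non-coding transcripts; with 1 they were 135, and 71 and 133. Without the filter 378 and 505 long non-coding transcripts, 130 and 39 microRNAs outside the domain list and 1 higher in the domain list were called. With the stricter filter the counts were 87 and 97 mRNA genes, 38 and 75 long non-coding transcripts, and 7 and 7 microRNAs outside the domain. Quantile normalization gave 91 and 5 such microRNAs, and TMM factors and RPM outside the domain each gave 11 higher. The additive limma fit called 8 mRNA genes higher and 54 lower at an adjusted p of 0.05 (515 either way at an unadjusted 0.05). Of the 8, 4 were the Y-linked Uty, Ddx3y, Kdm5d and Eif2s3y, which were at 0 in WT and differed between HOMO and PKI by -0.42 (Ddx3y) to 0.04 (Eif2s3y). The additive edgeR fit called 0 microRNAs outside the domain higher (12 unadjusted), 8 lower, and all 77 domain microRNAs lower. These fits assume that paternal and maternal effects add. Their maternal term pools MKI against WT with HOMO against PKI. Its error rests on how far these pairs disagree, with 1 residual degree of freedom and no replicates. The calls are therefore no test of HOMO against PKI, and no conclusion is drawn from them. All 77 domain microRNAs passed the filter through the WT and PKI columns, so their count is not independent of the filter. List medians changed sign for mural (-0.00063) and kidney and gonad genes (-0.066) under the stricter filter and mitochondrial mRNAs (0.093) under quantile normalization. Under TMM factors they changed sign for microRNAs of muscle (-0.0987), epithelium (-0.077), cartilage and smooth muscle (-0.021) and let-7 (-0.0965), and under RPM outside the domain for muscle (-0.045), epithelium (-0.025) and let-7 (-0.043). The cause of these shifts was not tested. Counting each value under each alternative once, 245 values of counts and lists and 857 of single genes or microRNAs kept their direction and size, and 19 of single ones moved by over 1.5-fold.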
